A study of Homo sapiens with 8 samples.

Results

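The classical and basal-like markers of pancreatic cancer were examined in SW1990 cells, a line derived from human pancreatic adenocarcinoma. Members were taken by gene symbol, 29 from the classical or gastric-type list and 17 from the basal-like or squamous list, so that they make up 46 of the 38637 genes in the expression table. All 46 symbols were present, and their listed positions overlap the genes of the same name in the hg38 annotation. The rule takes members by name and uses no measured value, although earlier results of these data were known when the lists were chosen.

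Pancreatic ductal adenocarcinomas are commonly divided into a classical type, which keeps the secretory program of gastrointestinal epithelium, and a basal-like type, which has lost much of it and expresses genes of stratified or squamous epithelium. GATA6, HNF4A, FOXA2 and PDX1 are transcription factors of the endodermal program that classical tumors keep, and their targets include mucins, trefoil factors and brush-border proteins. Keratinocyte surface proteins, protease inhibitors and cornified envelope proteins mark the basal-like type, which carries the poorer prognosis in patients.

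Poly(A)-selected RNA was sequenced from 4 groups with 2 libraries each, and the groups formed 2 experiments. In the first, cells that overexpressed the transcription factor EBF2 (EBF2-OE) were set against cells with the empty vector (Vector). In the second, cells given GSK-LSD1, a selective inhibitor of the histone demethylase LSD1 (KDM1A), were set against cells given vehicle (Vehicle). The sample titles put the dose of GSK-LSD1 at 2000 µM and give no time. Other experiments of the study used much lower doses, so the dose behind these libraries is uncertain. The first experiment was profiled as libraries 2 and 3 of Vector and of EBF2-OE, the second as libraries 1 and 2 of Vehicle and of GSK-LSD1. All groups are SW1990 cells without a further allele or agent in the labels, and the promoter that drives EBF2 and the number of clones are not given in the sources used here. A figure legend of the study, however, names the sequenced cells SW1990-luc, SW1990 labeled with luciferase, while its text calls them SW1990. The labels also do not say whether the libraries of a group came from separate cultures, so p-values measure only the spread between these libraries, which may be technical.

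Library totals ran from 20453362 to 27054876 counts. EBF2 itself had 28 counts in each Vector library, 5818 in EBF2-OE 2 and 90100 in EBF2-OE 3, so the overexpressing libraries were far apart in the transgene. The Vector and EBF2-OE libraries also differed more within a group (chi-square per degree of freedom of 25.6 and 32.9 across genes) than those of Vehicle and GSK-LSD1 (6.23 and 5.34). Of the epithelial keratins, KRT8 and KRT18 were among the most abundant transcripts, while KRT19, EPCAM and CDH1 were at or below 1.57 TPM (a level scaled by gene length and library total) in every library, so that these defining epithelial markers were low. EPCAM had 4 to 20 counts and CDH1 7 to 57 counts, while KRT19 had no count in 3 libraries. The cells are SW1990 by their labels, and the identity of the line was not tested. Summed fibroblast markers, led by COL1A1, ran from 50.8 to 66.8 TPM. Acinar markers summed to at most 1.64 TPM and endocrine markers to at most 0.433 TPM, with PRSS1 and INS at 0 throughout.

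Most members were low or not detected. In all 8 libraries 13 of the 46 had no count, 8 classical (TFF2, TFF3, BTNL8, AGR3, CTSE, PDX1, CLRN3 and REG4) and 5 basal-like (VGLL1, SPRR3, LEMD1, SPRR1B and SCEL). A count of 0 allows up to 3 counts, which is 0.111 to 0.147 CPM (counts rescaled so that all libraries share 1 total) depending on the library, and covers counting error only. With these, 24 members, 15 classical and 9 basal-like, had at most 3 counts in every library. A mean level of 1 TPM over the 8 libraries was reached by 4 of 29 classical and 8 of 17 basal-like members. Among all genes listed 38.2% reached it, and among protein-coding genes 61.9%.

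**Figure D1:**
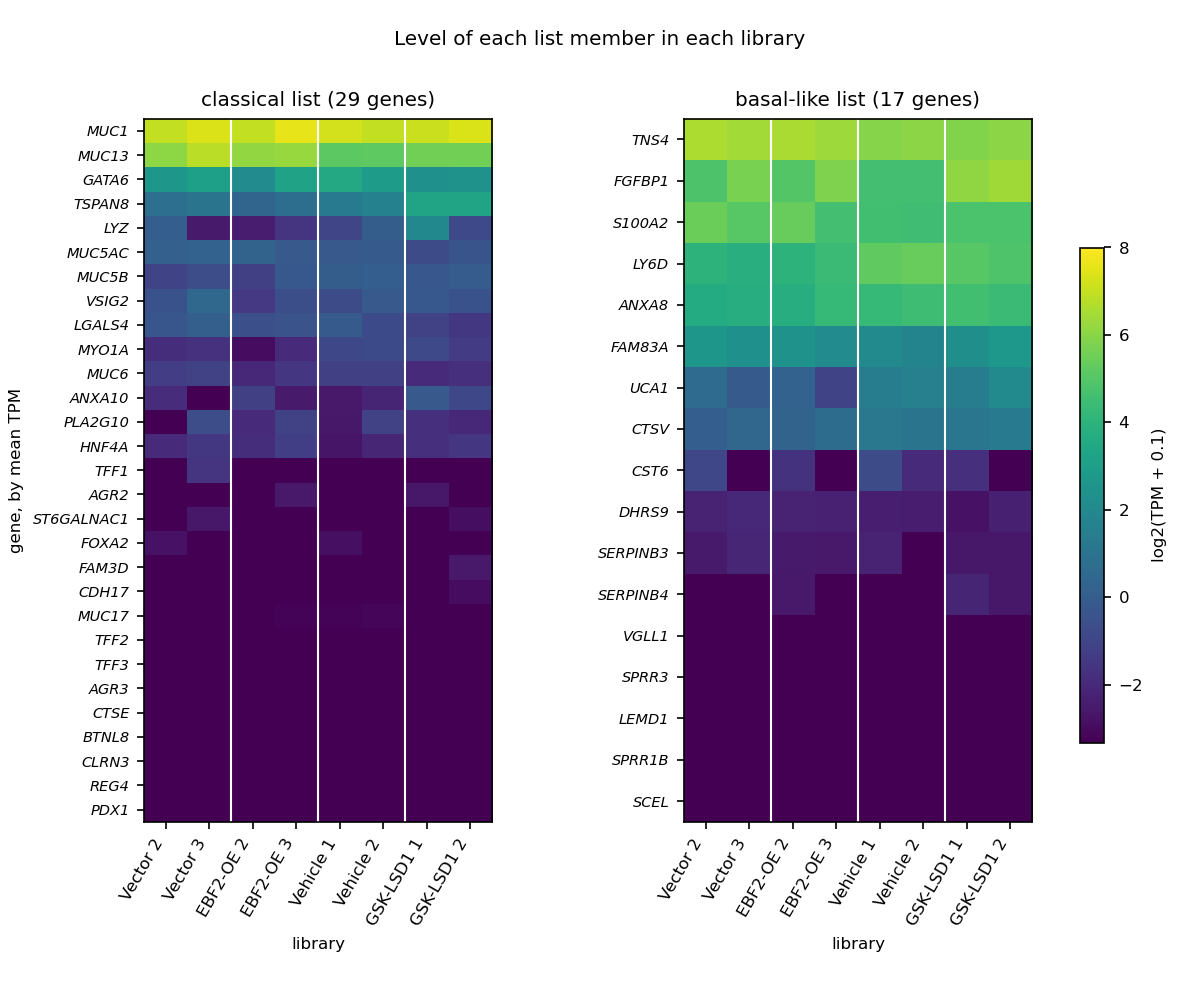
Level of each member in each library, as the colour of log2(TPM + 0.1), with genes in rows ordered by mean TPM within each list, libraries in columns and white lines between the groups. MUC1 and MUC13 head the classical list and TNS4, FGFBP1 and S100A2 the basal-like list, while 24 of the 46 members, in the dark rows, had at most 3 counts in every library.

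The secreted part of the classical program was at or near the detection limit. The trefoil factors, small peptides that protect mucosa, had 1 count in all (TFF1 in Vector 3), and AGR2, a chaperone of mucin folding, had 1 count in EBF2-OE 3 and 1 in GSK-LSD1 1. LYZ, which encodes lysozyme, had the highest mean of this group over the 8 libraries, though not the highest level in each of them. In Vector its counts were 11 and 1, in EBF2-OE 1 and 3, and in Vehicle 6 and 14, whereas the GSK-LSD1 libraries held 51 and 6, so that a single library, GSK-LSD1 1, stood above the rest.

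The mucins MUC1 and MUC13 were the most abundant classical members, while the other mucins had a mean under 1 TPM. MUC1, a transmembrane mucin of glandular surfaces, measured 125 and 169 TPM in Vector, 124 and 193 TPM in EBF2-OE, 148 and 123 TPM in Vehicle, and 135 and 162 TPM in GSK-LSD1, and every pair of groups overlapped. MUC13, another transmembrane mucin, measured 68.0 and 113 TPM in Vector, 71.8 and 76.7 TPM in EBF2-OE, 35.2 and 36.6 TPM in Vehicle, and 48.1 and 48.4 TPM in GSK-LSD1. The gel-forming mucins of the stomach and airway were low, with MUC5AC between 0.503 and 1.12 TPM and MUC6 between 0.146 and 0.374 TPM. MUC5B measured 0.395 and 0.539 TPM in Vector, 0.348 and 0.763 TPM in EBF2-OE, 0.923 and 0.955 TPM in Vehicle, and 0.747 and 0.891 TPM in GSK-LSD1, and the Vector libraries and EBF2-OE 2 were lower than all others. MUC17 had at most 2 counts in any library. The 6 mucins together summed to between 162 and 284 TPM, and MUC1 gave between 59.4 and 79.9% of that sum.

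Of the 4 transcription factors, GATA6 was the most abundant. It measured 6.29 and 8.20 TPM in Vector, 4.34 and 9.09 TPM in EBF2-OE, 11.4 and 7.59 TPM in Vehicle, and 5.11 and 5.47 TPM in GSK-LSD1. HNF4A, a nuclear receptor of gut and liver epithelium, reached at most 0.333 TPM, with counts of 9 and 17 in Vector and of 10 and 21 in EBF2-OE, then of 4 and 10 in Vehicle and of 13 and 16 after GSK-LSD1. FOXA2 had 1 count in Vector 2 and 1 in Vehicle 1, PDX1 had none, and VGLL1, a cofactor of TEAD transcription factors in the basal-like list, had none either. Of the surface and brush-border genes, TSPAN8, a tetraspanin of gastrointestinal epithelium, was the highest, and the next, VSIG2, reached at most 1.30 TPM.

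The 8 basal-like members that were detected came from the surface, protease and signaling groups, and none was a small proline-rich protein. TNS4, a focal adhesion protein, measured 97.5 and 85.0 TPM in Vector, 95.3 and 81.4 TPM in EBF2-OE, 61.6 and 64.6 TPM in Vehicle, and 57.4 and 65.1 TPM in GSK-LSD1. S100A2, a calcium-binding protein of basal keratinocytes, measured 43.5 and 33.6 TPM in Vector, 41.3 and 24.3 TPM in EBF2-OE, 23.4 and 23.2 TPM in Vehicle, and 27.8 TPM in both GSK-LSD1 libraries. TNS4 was higher in all 4 libraries of the first experiment than in those of the second, and EBF2-OE 3 was the only library of the first in which S100A2 was not above all of the second.

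LY6D, a GPI-anchored keratinocyte antigen, measured 16.0 and 13.8 TPM in Vector, 16.0 and 21.0 TPM in EBF2-OE, 38.1 and 41.3 TPM in Vehicle, and 33.5 and 29.5 TPM in GSK-LSD1. ANXA8, a phospholipid-binding annexin, measured 12.4 and 13.2 TPM in Vector, 13.2 and 18.8 TPM in EBF2-OE, 19.1 and 21.9 TPM in Vehicle, and 24.0 and 21.1 TPM in GSK-LSD1. Both were lower in the first experiment. UCA1, a long noncoding RNA first described in bladder cancer, measured 1.45 and 0.815 TPM in Vector, 1.07 and 0.404 TPM in EBF2-OE, 2.61 and 2.95 TPM in Vehicle, and 2.65 and 4.04 TPM in GSK-LSD1. CTSV, a lysosomal cysteine protease, measured 0.937 and 1.24 TPM in Vector, 1.12 and 1.51 TPM in EBF2-OE, 2.20 and 1.97 TPM in Vehicle, and 2.07 and 2.36 TPM in GSK-LSD1, again lower in the first experiment. The listed span of ANXA8 overlaps 12 other genes and it has a near-identical copy, ANXA8L1, so how reads were split between these is uncertain. The serpins SERPINB3 and SERPINB4, inhibitors of proteases that are close copies of each other, had at most 2 counts in any library.

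The promoters of the members that changed with GSK-LSD1 are shown to give the sequence context of those changes. The RefSeq promoter table used here matched 28 of the 46 members by symbol, and for TSPAN8, FGFBP1 and GATA6 its start matches the listed one. Each line gives the 250 bases upstream of that start on GRCh38.p14, 5′ to 3′ in the direction of the gene. They lie at chr12:71158000-71158249 (minus strand), chr4:15938741-15938990 (minus strand) and chr18:22169339-22169588 (plus strand), and FAM83A is given by its values only.
TSPAN8: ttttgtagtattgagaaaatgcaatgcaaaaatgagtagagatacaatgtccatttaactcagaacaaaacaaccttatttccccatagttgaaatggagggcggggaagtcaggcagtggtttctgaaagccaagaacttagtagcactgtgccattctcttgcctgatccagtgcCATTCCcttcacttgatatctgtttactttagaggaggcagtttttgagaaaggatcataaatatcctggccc
FGFBP1: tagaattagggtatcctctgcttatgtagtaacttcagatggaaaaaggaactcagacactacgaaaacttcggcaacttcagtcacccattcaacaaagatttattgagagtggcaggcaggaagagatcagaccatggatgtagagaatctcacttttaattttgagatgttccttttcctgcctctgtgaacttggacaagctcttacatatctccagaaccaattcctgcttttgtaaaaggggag
GATA6: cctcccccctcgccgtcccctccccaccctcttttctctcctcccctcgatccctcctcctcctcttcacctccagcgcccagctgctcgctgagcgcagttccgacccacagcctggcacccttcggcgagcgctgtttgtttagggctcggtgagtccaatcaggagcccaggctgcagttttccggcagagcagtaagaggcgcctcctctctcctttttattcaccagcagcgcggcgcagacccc

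Capitals mark the only match, GGAATG (the core of the TEAD motif) on the opposite strand of TSPAN8, 73 to 68 bases upstream of its start. This motif is in 11.9% of the 35116 RefSeq promoter windows of this length. On either strand, the 3 windows held no match to the letters TGANTCA of AP-1 (found in 6.57% of all windows) or to the letters AGATAA, which GATA factors bind (found in 9.17%). There was also no match to CCCNNGGG, the palindrome of EBF factors (found in 17.1%), to the E-box CAGGTG, which SNAI1 and ZEB1 bind (found in 17.5%), or to the promoter element TATAAA (found in 10.7%).  The windows of TSPAN8 and FGFBP1 both hold 40.8% G and C, and that of GATA6 holds 64.4%, beside a median of 58.0% over all promoters.

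To assess whether LSD1 inhibition moved the subtype markers, GSK-LSD1 was compared with Vehicle. Calls required a change of more than 1.5-fold together with an adjusted p under 0.05 from the quasi-likelihood test of edgeR, adjusted by Benjamini-Hochberg over the 16059 genes tested. TSPAN8 from the classical list and FGFBP1 and FAM83A from the basal-like list rose, and GATA6 from the classical list fell. Of all genes tested, 2.53% were called higher and 2.04% lower. Of the members, 11 classical and 8 basal-like had enough counts to be tested, and the other 27 were too low. Genes from both lists are thus among the 3 called higher.

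TSPAN8 measured 2.38 and 3.01 TPM in Vehicle, and 9.66 and 9.57 TPM in GSK-LSD1. Both treated libraries were above both Vehicle libraries and above all 4 libraries of the other experiment, which lay between 1.21 and 1.97 TPM. Its log2 fold change was 1.86 ± 0.21 (SE), or 3.63-fold, with an adjusted p of 0.000219 by edgeR, and it was called under all 10 alternative fits, with adjusted p up to 0.0301. TSPAN8, which lies at chr12:71125093-71157999 on hg38, is known for promoting the motility of gastrointestinal tumor cells.

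FGFBP1, a secreted carrier that releases fibroblast growth factors from the matrix, measured 24.4 and 24.3 TPM in Vehicle, and 69.1 and 83.4 TPM in GSK-LSD1. The treated libraries were also above the Vector and EBF2-OE libraries, which spread from 28.7 to 55.8 TPM. Its log2 fold change was 1.68 ± 0.10 (SE), or 3.20-fold, with an adjusted p of 3.52e-06 by edgeR. In 1 fit over all 8 libraries, which takes the spread from both experiments, the same log2 fold change of 1.68 had an adjusted p of 0.0651 and was no longer called.

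FAM83A, a signaling adaptor of the EGFR pathway, measured 4.01 and 3.35 TPM in Vehicle, and 4.90 and 6.45 TPM in GSK-LSD1. The groups did not overlap, but the Vector libraries, at 6.23 and 5.09 TPM, reached the level of the treated ones, as did EBF2-OE 2 at 5.36 TPM, with EBF2-OE 3 at 4.30 TPM. Its log2 fold change was 0.66 ± 0.14 (SE), with an adjusted p of 0.0106 by edgeR. The call was lost without Vehicle 2 (log2 fold change of 0.51), without GSK-LSD1 2 (0.47) and in the fit over 8 libraries (adjusted p of 0.192 by edgeR). An antisense gene, FAM83A-AS1, overlaps it, and the strand setting of the counting is not given in the sources used here, so reads from the pair cannot be told apart.

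GATA6 was lower with GSK-LSD1, at 5.11 and 5.47 TPM against 11.4 and 7.59 TPM in Vehicle. The groups did not overlap, and the Vehicle libraries differed by more than the treated ones did. The log2 fold change was -0.81 ± 0.18 (SE), or 1.75-fold lower, with an adjusted p of 0.0116 by edgeR. The size depended on Vehicle 1, since without it the log2 fold change was -0.47 and no longer called, and without Vehicle 2 it was -1.09. The call was also lost without either GSK-LSD1 library (adjusted p of 0.113 and 0.0922 by edgeR) and in the fit over 8 libraries (0.370). EBF2-OE 2, at 4.34 TPM, was lower than the GSK-LSD1 libraries.

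**Figure D2:**
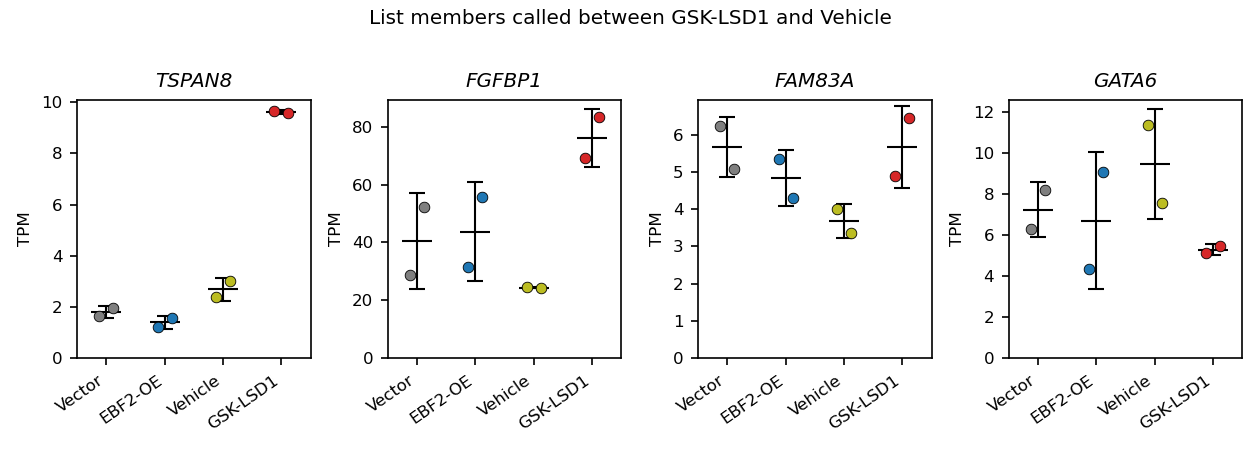
Level in TPM of the 4 members called between GSK-LSD1 and Vehicle, in each library of the 4 groups (points), with the group mean and SD over 2 libraries (bars). The GSK-LSD1 libraries of TSPAN8, at 9.66 and 9.57 TPM, stand above all others, whereas those of FAM83A lie at the level of Vector, and GATA6 is lower with GSK-LSD1 than with Vehicle.

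The other tested members did not pass. MUC13, with the levels given above, had a log2 fold change of 0.46 ± 0.06 (SE) and an adjusted p of 0.000755 by edgeR, and its fold was under the limit. MUC1 (0.16 ± 0.09), TNS4 (-0.01 ± 0.06), ANXA8 (0.17 ± 0.09) and CTSV (0.12 ± 0.17) had log2 fold changes within 0.2 of 0. S100A2 was at 0.29 ± 0.11, LY6D at -0.30 ± 0.12, MUC5B at -0.17 ± 0.14, and UCA1 at 0.30 ± 0.23. HNF4A, at 1.23 ± 0.53, rested on 4 to 16 counts and had an adjusted p of 0.132 by edgeR. LYZ had a log2 fold change of 1.70 ± 0.77 (adjusted p of 0.153 by edgeR), which was -0.51 without GSK-LSD1 1.

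The lists were also read as a whole. The median log2 fold change was 0.12 over the 11 tested classical members and 0.23 over the 8 tested basal-like members, beside -0.01 over all genes tested. The classical median changed sign with the processing, to -0.20 with at least 10 counts in every library, to -0.16 without GSK-LSD1 1 and to -0.02 in the fit over 8 libraries. These fits tested 8, 12 and 12 classical members, so the set of members changed as well. The basal-like median stayed above 0 in every alternative, from 0.15 with DESeq2 to 0.26 without Vehicle 2. Log2 fold changes were above 0 for 6 classical and 6 basal-like members, and 49.0% of all genes tested were higher. ANXA10, an annexin of gastric epithelium that was too low for the test, held 1 and 2 counts in the Vehicle libraries and 11 and 6 in those with GSK-LSD1. The ratio of its CPM, summed over libraries, was 6.47, with a 95% interval of 1.87 to 34.5 (exact, counting error only). It was picked from the untested members with any count here, as the only one whose interval leaves out a ratio of 1. LGALS4, also untested, went the other way, from 14 and 9 counts to 6 and 4, at a ratio of 0.496 (0.211 to 1.08).

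Further genes of the published subtype signatures and of the transcription factors tied to either type were read beside the members. KRT17, a keratin of basal epithelial cells, rose from 250 and 235 TPM to 437 and 439 TPM (log2 fold change of 0.89 ± 0.06, adjusted p of 4.94e-06 by edgeR), and AREG, an EGFR ligand, rose from 4.30 and 3.58 TPM to 7.46 and 7.30 TPM (0.94 ± 0.20, adjusted p of 0.00942 by edgeR). In the fit over 8 libraries the calls of KRT17 (adjusted p of 0.173 by edgeR) and AREG (0.495) were lost, and that of AREG was also lost with DESeq2 (adjusted p of 0.0809) and without either GSK-LSD1 library. KRT7, a simple-epithelial keratin that the published signature puts with the basal-like genes, fell from 787 and 792 TPM to 497 and 459 TPM (-0.69 ± 0.05, adjusted p of 2.19e-05 by edgeR). Hence 2 of 9 further basal-like genes were called higher and 1 lower, with 6 tested, beside 2.53% and 2.04% of all genes tested. SLC2A1, a glucose transporter, was at -0.09 ± 0.05.

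None of the 5 further classical genes was called, and of these KRT20, an intestinal keratin, was the only one tested, at 0.64 ± 0.30. SPINK4 and CYP3A7 had at most 9 counts in any library. Among 12 gastrointestinal transcription factors, KLF4 fell from 135 TPM in both Vehicle libraries to 86.4 and 82.0 TPM (-0.64 ± 0.05, adjusted p of 3.80e-05 by edgeR), and none was called higher. The call of KLF4 was lost in the fit over 8 libraries (adjusted p of 0.624 by edgeR). ELF3, an epithelial ETS factor, was at -0.31 ± 0.05, and SOX9, a ductal progenitor factor, measured 4.35 to 5.77 TPM in these 4 libraries. A list of 10 factors holds those of squamous epithelium or tied to basal-like tumors. Among them TP63, the master regulator of squamous epithelium, rose from 5 and 8 counts to 20 and 25 counts (1.97 ± 0.45, adjusted p of 0.0129 by edgeR). This call of TP63 was lost with DESeq2, in the fit over 8 libraries and without Vehicle 1 or either GSK-LSD1 library. TFAP2A (-0.07 ± 0.06), FOSL1 (-0.46 ± 0.10) and KLF5 (-0.53 ± 0.08) were not called.

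Markers of other cell types were checked in the same comparison. CDH5, an endothelial cadherin, fell from 4.34 and 4.20 TPM to 2.05 and 2.21 TPM. It was the only 1 of 4 endothelial markers called, with 3 tested. In the fit over 8 libraries this call was lost (adjusted p of 0.123 by edgeR). Tested were 5 of 7 ductal or epithelial, 6 of 6 fibroblast and 1 of 5 immune markers, and none of these was called. Acinar and endocrine markers were too low for the test. KRT19, too low as well, had 21 and 9 counts in Vehicle and 1 and 0 with GSK-LSD1. EPCAM, also untested, had 6 and 4 counts in Vehicle and 20 and 6 with GSK-LSD1. Under the fold limit but with an adjusted p under 0.05 by edgeR were KRT18 (-0.45 ± 0.04, adjusted p of 4.11e-05), KRT8 (-0.30 ± 0.03, 0.000251), COL1A2 (0.52 ± 0.10, 0.00664), COL1A1 (0.26 ± 0.06, 0.0130) and CD68 (0.55 ± 0.12, 0.0117).

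The summed ductal or epithelial markers were lower with GSK-LSD1, at 4691 to 4744 TPM against 6210 to 6303 TPM in Vehicle, and so were the endothelial ones, at 2.63 to 2.79 TPM against 4.88 to 5.04 TPM. Summed immune markers were higher, at 17.4 to 18.9 TPM against 11.4 to 13.8 TPM, and fibroblast markers also, at 62.6 to 65.2 TPM against 57.7 to 58.7 TPM. Few genes lead these sums: KRT8 and KRT18 the ductal, CDH5 the endothelial, CD68 the immune and COL1A1 the fibroblast one. Not all markers followed. By group means EPCAM rose from 0.326 to 0.930 TPM and CDH1 from 0.956 to 1.08 TPM, while KRT19, SOX9 and CFTR fell. PDGFRB fell from 16.2 to 13.6 TPM and COL3A1 slightly, while COL1A2, DCN and LUM rose. PTPRC was at 0.0871 and 0.0831 TPM, and CD3E and LYVE1 had no count. The part of these markers in the changes of the members was not tested. In bulk RNA, fewer cells that express a gene and less RNA per cell cannot be told apart.

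EBF2-OE was then compared with Vector, to assess whether EBF2 overexpression moved the same markers. No member was called among 9 classical and 8 basal-like members tested, beside 0% of all 15560 genes higher and 0% lower. By unadjusted p-values under 0.05 with a fold above 1.5, 114 genes were higher and 34 lower, none of them a member, and DESeq2 called 6 genes higher and 1 lower, again without a member. EBF2 itself, with the counts given above, had a log2 fold change of 10.75 ± 1.55 and an adjusted p of 0.9998 by edgeR, so in this comparison even the transgene did not pass. A p-value that misses the limit here does not show that the members stayed the same.

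The tested members spread around 0 with EBF2-OE, from -0.78 ± 0.50 for MUC6 to 0.35 ± 0.21 for ANXA8. TSPAN8 was at 1.64 and 1.97 TPM in Vector, and 1.21 and 1.58 TPM in EBF2-OE, a log2 fold change of -0.34 ± 0.48. FGFBP1 was at 28.7 and 52.3 TPM in Vector, and 31.6 and 55.8 TPM in EBF2-OE (0.14 ± 0.38), so that it varied more within each group than between the groups. FAM83A was at -0.20 ± 0.20 and GATA6 at -0.08 ± 0.38, and in both the groups overlapped. These errors take no account of the library number, and the labels do not say whether same-numbered libraries are pairs. Within numbers 2 and 3, the ratio of EBF2-OE to Vector was 0.889 and 0.852 for FAM83A, 0.764 and 0.809 for TSPAN8, and 0.712 and 1.12 for GATA6. It was above 1 within both numbers for 6 of the 17 members tested and below 1 within both for 6.

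LY6D (0.35 ± 0.28), CTSV (0.30 ± 0.38) and HNF4A (0.32 ± 0.58) had values above 0, and UCA1 (-0.59 ± 0.62), MUC13 (-0.26 ± 0.25) and S100A2 (-0.20 ± 0.28) below 0, all within their errors or little beyond. MUC5B was at 0.28 ± 0.45, MUC1 at 0.14 ± 0.26 and TNS4 at -0.02 ± 0.14. The medians were -0.10 for the classical and 0.06 for the basal-like members tested, beside 0.0035 for all genes. Their signs were not stable. Over the alternatives the classical median ran from -0.47 (without EBF2-OE 3) to 0.05 (without Vector 3), and the basal-like one from -0.12 (without the low-count filter) to 0.18 (without EBF2-OE 2). The members behind a median also changed, from 9 classical and 8 basal-like in the main fit to 19 and 12 without the low-count filter. No gene of the further lists was called.

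**Figure D3:**
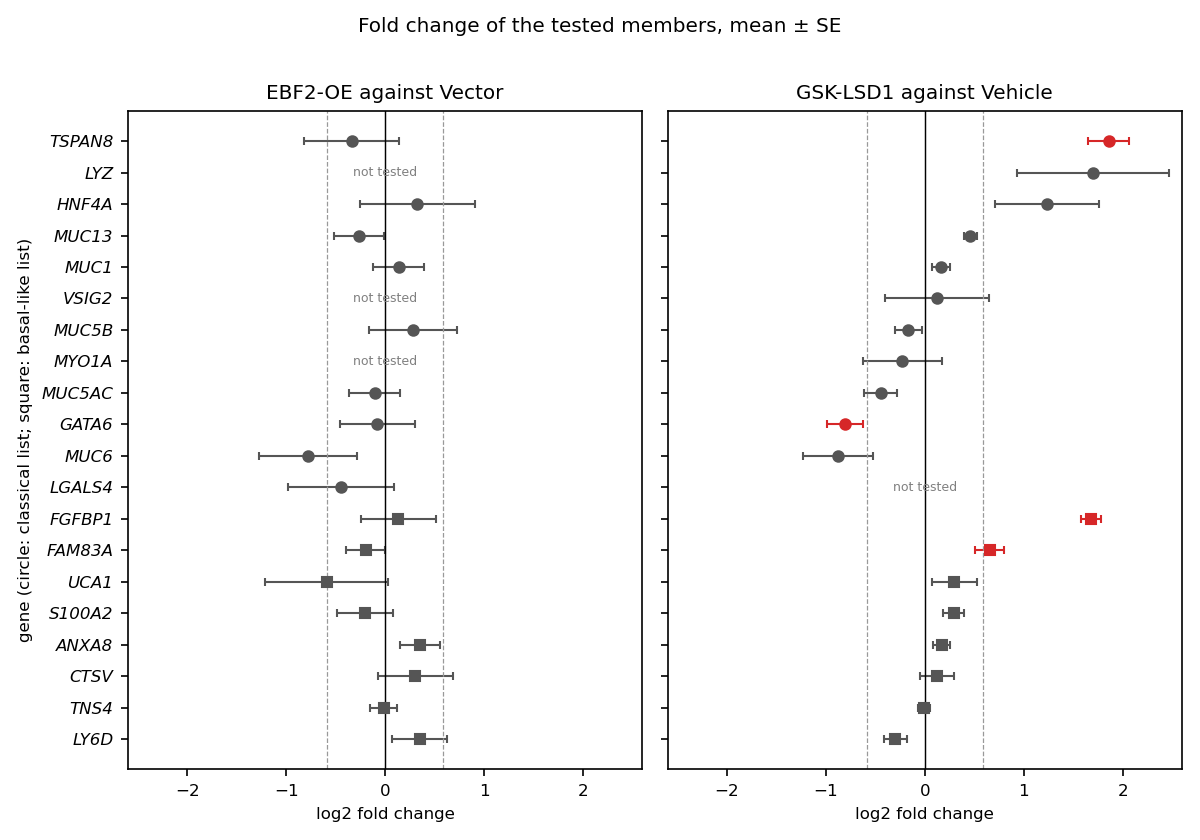
Log2 fold change (horizontal axis) with its SE for each tested member in EBF2-OE against Vector (left) and GSK-LSD1 against Vehicle (right), circles for the classical and squares for the basal-like list, red where called, dashed lines at a fold of 1.5 in either direction. TSPAN8, FGFBP1, FAM83A and GATA6 are called on the right, whereas no member is called on the left.

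The difference of the treatment effects was tested in a fit over all 8 libraries, since passing in a single experiment does not show that the experiments differ. No member was called among the 20 tested, beside 0% of 16558 genes. The difference, EBF2-OE effect minus GSK-LSD1 effect, was -2.21 ± 0.44 on the log2 scale for TSPAN8 (adjusted p of 0.202 by edgeR), -1.56 ± 0.45 for FGFBP1 (0.447), -0.86 ± 0.27 for FAM83A (0.492) and 0.72 ± 0.48 for GATA6 (0.785). At an unadjusted p under 0.05 with the fold limit, 1 member was higher (LY6D) and 4 were lower (TSPAN8, FGFBP1, FAM83A and MUC13). Of all 16558 genes tested, 383 were higher and 335 lower at this setting. Of the members, DESeq2 called FGFBP1 alone, with an adjusted p of 0.0133, beside 38 genes higher and 56 lower of 27234. Without the low-count filter, edgeR called TSPAN8, FGFBP1 and MUC13, beside 198 genes higher and 171 lower of 27234.

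The control cells of the experiments, Vector and Vehicle, were compared to show how far the members varied without EBF2 or GSK-LSD1. Here 2 members were higher in Vector (MUC13 and S100A2) and 5 lower (LY6D, UCA1, ANXA8, CTSV and MUC5B) among 12 classical and 8 basal-like members tested. Of all 16019 genes tested, 5.79% were called higher and 10.2% lower. The vector construct and the experiment cannot be told apart in this comparison.

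LY6D, at 16.0 and 13.8 TPM in Vector against 38.1 and 41.3 TPM in Vehicle, had a log2 fold change of -1.44 ± 0.17 (adjusted p of 0.00869 by edgeR). UCA1, at 1.45 and 0.815 TPM against 2.61 and 2.95 TPM, differed by -1.33 ± 0.34 (adjusted p of 0.0395 by edgeR), and a gene on the opposite strand, LINC01764, overlaps it. ANXA8 (-0.70 ± 0.11, adjusted p of 0.0145 by edgeR) and its copy ANXA8L1 (-0.65 ± 0.17, adjusted p of 0.0431 by edgeR) were both lower in Vector.

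CTSV measured 0.937 and 1.24 TPM in Vector, and 2.20 and 1.97 TPM in Vehicle (-0.95 ± 0.26), with an adjusted p of 0.0496 by edgeR, at the edge of the limit. MUC5B, the only classical member called lower, measured 0.395 and 0.539 TPM in Vector, and 0.923 and 0.955 TPM in Vehicle (-1.02 ± 0.23, adjusted p of 0.0303 by edgeR). A gene on the opposite strand, MUC5B-AS1, overlaps it. MUC13 was higher in Vector, by 1.33 ± 0.26 (adjusted p of 0.0204 by edgeR), and S100A2 by 0.70 ± 0.16 (adjusted p of 0.0299 by edgeR). 

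**Figure D4:**
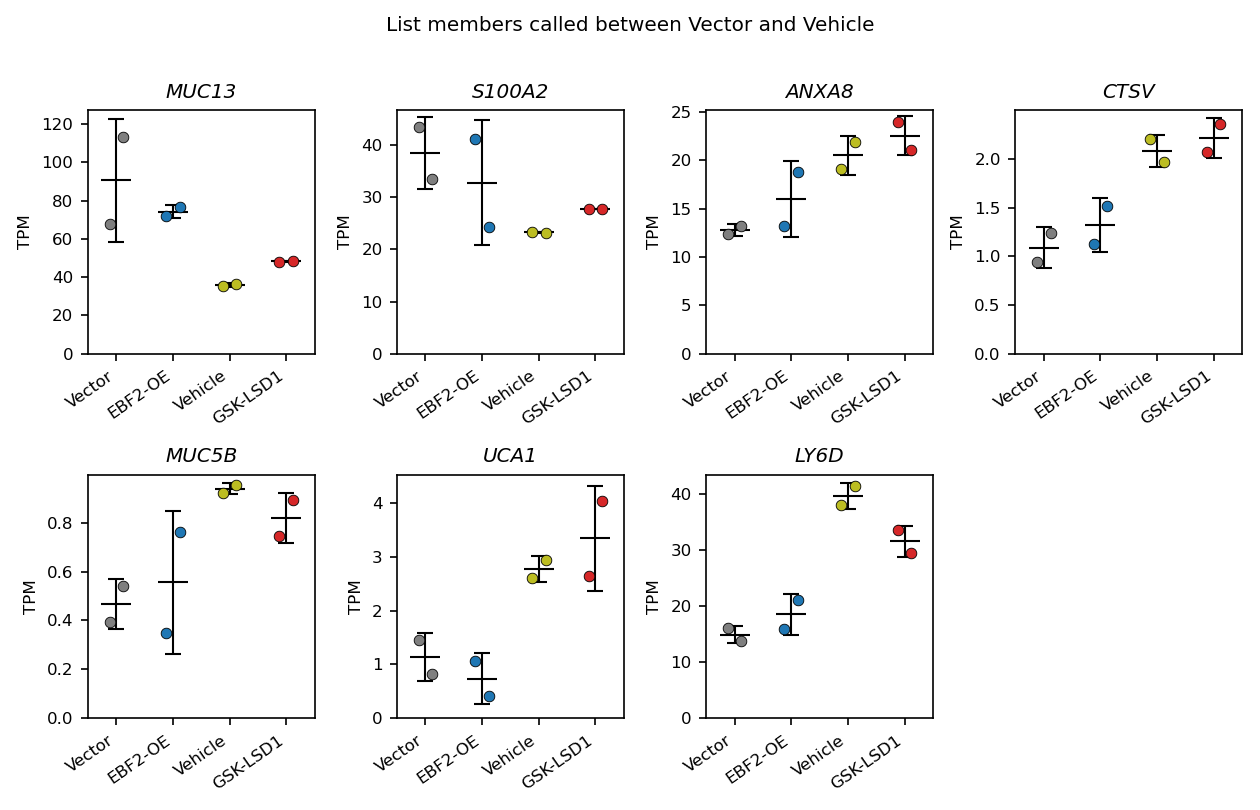
Level in TPM of the 7 members called between Vector and Vehicle, in each library of the 4 groups (points), with the group mean and SD over 2 libraries (bars). MUC13 and S100A2 are higher in Vector than in Vehicle, and ANXA8, CTSV, MUC5B, UCA1 and LY6D are lower.

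No member was called in this comparison without Vehicle 1 or without Vehicle 2, where all genes called fell from 2558 to 12 and 235, respectively. S100A2 was also lost without Vector 2, CTSV and UCA1 with DESeq2, and S100A2, UCA1 and MUC5B in the fit over 8 libraries. Called markers of other cells moved in it too. Of the endothelial markers, CDH5 was at 0.469 and 0.539 TPM in Vector, and 4.34 and 4.20 TPM in Vehicle, and VWF was called lower as well. PDGFRB and COL3A1 of the fibroblast markers and CFTR and KRT18 of the ductal markers were also called lower, and CD68 and SOX9 higher. Summed endothelial markers ran from 0.717 to 0.798 TPM in Vector, and from 4.88 to 5.04 TPM in Vehicle. The part of these markers in the differences of the members was not tested.

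TNS4, the most abundant basal-like member, was at 0.51 ± 0.08 with an adjusted p of 0.0144 by edgeR, under the fold limit. MUC1 (0.10 ± 0.18), GATA6 (-0.40 ± 0.26), TSPAN8 (-0.59 ± 0.33), FGFBP1 (0.72 ± 0.30), FAM83A (0.60 ± 0.17), HNF4A (1.11 ± 0.57) and LYZ (-0.47 ± 0.94) were not called. Of the 4 members called with GSK-LSD1, none was thus called between the control cells, but FAM83A (adjusted p of 0.0537 by edgeR) was called there with DESeq2, without the low-count filter, in the fit over 8 libraries and without Vector 3, and FGFBP1 without the low-count filter and without Vector 2.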

How the data were processed

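RNA-seq of 8 SW1990 libraries was analysed. Per the labels, the authors aligned poly(A)-selected paired-end reads to hg38 with HISAT2 and counted them per gene with HTSeq; versions are not given in the sources used here. The deposited table holds raw counts, gene lengths and TPM, which the authors computed from counts and length. TPM served for levels and counts for tests. Counts were tested with edgeR 4.0.16 (R 4.3.3; TMM, filterByExpr with a minimum count of 10, quasi-likelihood test, two-sided), with DESeq2 1.42.0 as an alternative, on the 4 libraries of each comparison. A call needs a fold above 1.5 and an adjusted p under 0.05 (Benjamini-Hochberg). The SE comes from the test statistic. The fit was tested on simulated data. Alternatives were DESeq2 and its size factors, other low-count filters, 1 fit over all 8 libraries, a replicate block, unadjusted p, no fold limit and each library left out. Values are given for members called in any comparison, the 5 most abundant of each list, and the factors GATA6, HNF4A, FOXA2, PDX1 and VGLL1; from further lists, the called genes and the 3 most abundant. The members and lists were chosen with earlier results of these data known.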

Additional observations from a re-analysis of the deposited data

How the results depend on the processing

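With 2 libraries a group, the calls rest on a spread estimated across genes, and members under about 10 counts could not be tested. A fit without 1 library takes the lone library of that group to vary like the other group.

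With EBF2-OE, no member was called under any of the alternatives, while all genes called were 0 in the main fit, 7 with DESeq2, 74 without the low-count filter, 2 in the fit over all 8 libraries, 148 by unadjusted p, and 1 to 3 without 1 library. With GSK-LSD1, members called higher fell from 3 to 1 in the fit over 8 libraries. The 1 member called lower, GATA6, was lost there (0) and was 0 to 1 without 1 library, and 2 by unadjusted p. All genes called, 734 in the main fit, were 467 with DESeq2, 100 in the fit over 8 libraries, 3007 without a fold limit and 439 to 1007 without 1 library. Between Vector and Vehicle, members called higher were 4 without the low-count filter and 0 to 3 without 1 library, and members called lower were 3 with DESeq2, 3 in the fit over 8 libraries and 0 to 5 without 1 library. All genes called there were 4294 without a fold limit and 12 to 4259 without 1 library. For the difference of effects, members called lower were 1 with DESeq2, 3 without the low-count filter and 4 by unadjusted p, which also gave 1 higher. All genes called for it were 94, 369 and 718 in these fits, and 0 to 71 without 1 library.

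The replicate block, by library number, called 5 genes and no member with EBF2-OE, and kept 3 members higher and 1 lower with GSK-LSD1. By the labels the libraries share only a number. Deviations of same-numbered libraries correlated across genes by 0.35 in the first experiment and -0.01 in the second (genes are not independent replicates). Of the 17 members tested with EBF2-OE, 11 were higher in library 3 than in library 2 in both groups, and 4 were lower in both.

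Directions of uncalled members turned only when 1 library was left out. With EBF2-OE, log2 fold changes then ran from -0.34 to 0.67 (FGFBP1), -0.72 to 0.35 (GATA6), -0.60 to 0.18 (MUC13), -0.41 to 0.73 (MUC5B), -0.63 to 0.12 (S100A2), -0.23 to 0.42 (MUC1), -0.13 to 0.086 (TNS4) and -0.22 to 0.75 (HNF4A). With GSK-LSD1 they ran from -0.013 to 0.56 (UCA1), -0.51 to 2.53 (LYZ) and -0.081 to 0.062 (TNS4), and between Vector and Vehicle from -0.16 to 0.32 (MUC1) and -3.01 to 0.46 (LYZ). Other tested members turned as well without 1 library. These include MUC5AC with EBF2-OE (-0.38 to 0.13), and VSIG2 (-0.14 to 0.48) and MYO1A (-0.61 to 0.074) with GSK-LSD1. Between Vector and Vehicle they include MUC6 (-0.14 to 0.14) and VSIG2 (-0.11 to 1.00). The causes of these shifts were not tested. Among 563 alternative values of single members, 497 kept their direction and call, which includes uncalled members that stayed uncalled. Of the others, 20 turned direction, 28 lost a call and 18 gained one.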

Other observations

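Between Vector and Vehicle, genes of the further subtype lists differed as well. AREG, an EGFR ligand, measured 11.1 and 28.5 TPM in Vector, and 4.30 and 3.58 TPM in Vehicle, a log2 fold change of 2.32 ± 0.50 (adjusted p of 0.0264 by edgeR). KRT17 was higher in Vector by 1.71 ± 0.15 and SLC2A1 by 0.83 ± 0.12. So 3 of the 6 further basal-like genes tested were called higher, and ANXA8L1 was called lower. Of all 16019 genes tested, 5.79% were called higher and 10.2% lower. Without Vector 2 the log2 fold change of ANXA8L1 was -0.43, under the fold limit. SOX9 (1.76 ± 0.36) and FOSL1 (1.70 ± 0.19), an AP-1 subunit tied to basal-like tumors, were higher in Vector, and TFAP2A (-0.88 ± 0.21) was lower. Apart from KRT17, which remained called without Vehicle 2, all of these lost their call when either Vehicle library was left out.

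LSD1 itself, KDM1A, had 4859 and 4876 counts in GSK-LSD1, and 6580 and 6338 counts in Vehicle, a log2 fold change of -0.22 ± 0.06 with an adjusted p of 0.0403 by edgeR, which is under the fold limit.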
